A study of Mus musculus with 10 samples.

Results

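Lipoprotein lipase (Lpl), hepatic lipase (Lipc) and 3 angiopoietin-like proteins (Angptl4, Angptl6 and Angptl8) were followed in single mouse hepatocytes over the layers of the liver lobule and over 4 times of day. The 5 genes were taken by name from the 14812 gene rows of the count files, and all 5 were found in each of 10 libraries. They were chosen by their levels over layers and times in these same libraries (rows angptl4, angptl6, angptl8, lpl and lipc), so their levels and fitted differences over layers and times are descriptions, from which nothing is read about a threshold. Tests are read for the comparison by Glul, which the choice did not use, and for zone by rhythm. Zone by rhythm is a further contrast of the same layer and time values, so its test is not independent of the choice.

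Lpl is the enzyme that hydrolyses the triglycerides of chylomicrons and very low density lipoproteins on the wall of capillaries. It is made mainly by adipose tissue, muscle and heart, and in the adult liver its level is low. Lipc is the lipase that hepatocytes themselves secrete, and it acts on remnant particles and on high density lipoprotein. Angptl4 is a secreted inhibitor of lipoprotein lipase, raised by fasting and by fatty acids through PPAR receptors. Angptl8 is raised by feeding and by insulin and takes part in the inhibition of lipoprotein lipase. Angptl6 is a secreted protein of the same family that is not known as a lipase inhibitor. In the lobule, blood enters at the portal vein and leaves by the central vein, and hepatocytes next to each vein express different genes.

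All animals were C57BL/6 male mice, 3 months old, without a stated mutation or transgene, given regular chow freely and anaesthetised with ketamine and xylazine. Hepatocytes were freed with collagenase, purified on Percoll and profiled with the 10x Chromium 3' chemistry, version 2. Zeitgeber time (ZT) counts hours of the light cycle, with lights on at ZT0 by convention. There were 3 libraries at ZT0 (A, B and C), 2 at ZT6 (A and B), 3 at ZT12 (A, B and C) and 2 at ZT18 (A and B). The labels do not give the number of mice behind a library, so errors here are the spread between libraries, which may be technical. Fewer cells of one kind and less RNA per cell cannot be told apart in sums over cells.

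The 18378 cells gave 1454623 to 7144803 UMIs (distinct tagged molecules) a library, with 1588 to 2662 UMIs in the median cell. Hepatocyte markers summed to between 32120 and 62580 CPM (UMIs scaled to a library total of 1000000) in every library. The Kupffer cell markers Clec4f, Csf1r, C1qa and C1qb, the endothelial marker Clec4g and the lymphocyte markers Cd3e, Cd79a and Nkg7 were at 0 UMIs. Other markers of these lists had UMIs, so the 0 counts do not show that these cells were absent. Over the libraries, endothelial markers summed to 2.75 to 15.2 CPM, Kupffer and macrophage markers to 0 to 4.19 and lymphocyte markers to 0 to 0.61. Several libraries stood apart. ZT18B held 293 CPM of haemoglobin transcripts against at most 8.80 CPM in the other 9. ZT0C and ZT12C, the libraries of index plate column 5, held 786 and 1321 CPM of Glul, the glutamine synthetase of the cells around the central vein, and ZT12A held 619 CPM, against 86.0 to 245 CPM in the other 7. Both ZT18 libraries had an index column of their own (column 4), so that the time ZT18 and that column cannot be told apart.

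By GENCODE M21 (GRCm38), Lpl lies at chr8:68880491-68907448 on the plus strand, and Angptl4 at chr17:33773750-33781830 on the minus strand. On chromosome 9 lie Angptl6 (chr9:20873808-20879727, minus strand), Angptl8 (chr9:21835510-21837347, plus strand) and Lipc (chr9:70798128-70952226, minus strand). All are protein-coding genes. The span of Angptl8 overlaps that of Dock6 on the other strand, and the span of Angptl6 overlaps that of A230050P20Rik, also on the other strand. Whether the counting used strand is not given in the sources used here, so UMIs of those stretches may belong to either gene. The upstream sequence of Angptl8 is shown because its level differed between ZT0 and ZT12 without overlap. That of the downstream start of Lipc is shown because it holds the motif matches found among Angptl6, Angptl8 and Lipc. Each run is the 250 bases before a RefSeq start (GRCm38.p6), 5′ to 3′, and capitals mark a match to a searched motif. The Angptl8 run is chr9:21835260-21835509 on the plus strand and the Lipc run is chr9:70934809-70935058 on the minus strand.
Angptl8: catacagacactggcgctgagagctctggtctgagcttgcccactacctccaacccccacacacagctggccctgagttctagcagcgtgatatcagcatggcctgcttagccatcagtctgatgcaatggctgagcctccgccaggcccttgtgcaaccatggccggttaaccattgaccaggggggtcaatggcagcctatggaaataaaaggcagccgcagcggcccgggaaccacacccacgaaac
Lipc: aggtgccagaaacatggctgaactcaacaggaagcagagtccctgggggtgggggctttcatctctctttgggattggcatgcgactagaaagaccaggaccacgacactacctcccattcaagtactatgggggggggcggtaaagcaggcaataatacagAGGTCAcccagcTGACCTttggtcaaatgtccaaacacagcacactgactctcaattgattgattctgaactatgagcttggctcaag

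The motifs searched on both strands were the E-box CACGTG and the D-box TTATGTAA, bound by clock factors, the nuclear receptor motif AGGTCA and the HNF1 motif. No match lay in the Angptl8 run, in the Angptl6 run or before the upstream start of Lipc. No upstream sequence of Lpl or Angptl4 was available here, so these genes were not searched. The Lipc run shown holds AGGTCA starting 88 bases before the start and its reverse complement TGACCT starting 76 bases before it. Of 32851 RefSeq promoters of this length, 14.0% held AGGTCA, 6.02% CACGTG, 0.819% TTATGTAA and 0.371% the HNF1 motif. Such a match is a run of letters, not a shown site.

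Lpl transcripts were concentrated in the most pericentral hepatocytes. Cells of each library were ordered by landmark genes that include no member and split into 8 layers, with layer 1 next to the central vein. Lpl averaged 149 ± 112 CPM (SD, n = 10 libraries) in layer 1, 63.4 ± 66.3 CPM in layer 2, 34.4 ± 32.8 CPM in layer 3 and 15.8 ± 16.2 CPM in layer 4. In layers 5 to 8 it averaged 6.26, 4.62, 2.04 and 1.30 CPM. Over all libraries 862 Lpl UMIs lay in layer 1 and 10 in layer 8, where 6 libraries had none. The median depth per cell was similar in layers 1 and 8, at 1972 and 2160 UMIs. The mitochondrial share of UMIs was 14.7% in layer 1 and 19.7% in layer 8, and its part in the gradient was not tested.

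The same gradient was present in each library. In layer 1, Lpl stood at 163 CPM in ZT0A, 129 in ZT0B, 399.5 in ZT0C, 126 in ZT6A, 158 in ZT6B, 102 in ZT12A, 115 in ZT12B, 258 in ZT12C, 30.0 in ZT18A and 9.55 in ZT18B. In layer 8 the highest library was ZT6A at 6.05 CPM. With the cells split into 3 equal zones, the pericentral zone held 88.7 ± 73.1 CPM and the periportal zone 2.32 ± 1.99 CPM (SD, n = 10). The pericentral zone was the higher one in 10 of 10 libraries, as for 8.34% of 8907 genes, and the lowest pericentral value (5.99 CPM in ZT18B) lay above the highest periportal one (5.42 CPM in ZT6A). The periportal minus pericentral difference in edgeR, with the library as a block, was -4.79 ± 0.18 (log2, SE).

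The share of hepatocytes with an Lpl UMI followed the same order. After thinning every cell to 1000 UMIs, the median library had an Lpl UMI in 10.8% of layer 1 cells (range 0.446% to 35.1%) and in 2.89% of layer 2 cells. In layer 8 the median was 0% and the highest library had 0.446%. Without thinning, the layer 1 median was 23.96% and the layer 8 median 0%. Of 1167 cells with an Lpl UMI in the whole series, 280 held at least 2 and the highest held 8.

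**Figure D1:**
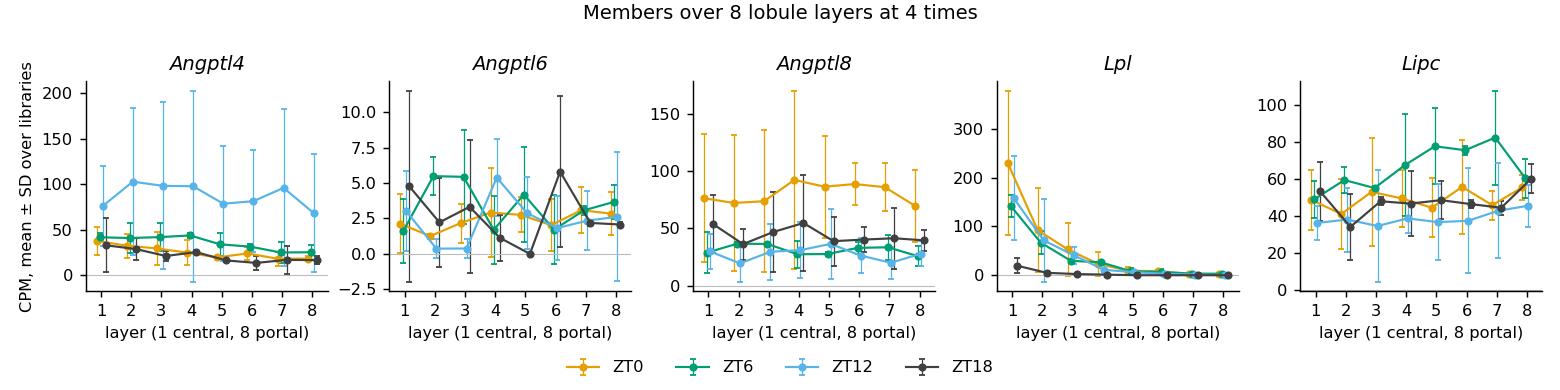
CPM of each gene (vertical axes, separate scales) over lobule layers 1 (central) to 8 (portal), as mean ± SD over the 2 or 3 libraries of each time, with colours for ZT0, ZT6, ZT12 and ZT18. Lpl falls from layer 1 to layer 8 at each time and is lowest at ZT18 in layers 1 to 7, while Angptl8 lies highest at ZT0 in each layer and Lipc and Angptl6 show no comparable gradient.

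Transcripts of endothelial cells, which carry lipoprotein lipase on their surface, were also measured. The 6 endothelial markers together had a median of 12.5 CPM in the pericentral zone (range 2.18 to 18.8) and of 6.29 CPM in the periportal zone (range 1.76 to 15.8). Stab2 accounted for 4.22 and 1.04 CPM of these. Gpihbp1, the capillary anchor of Lpl, had 29 UMIs in the series, at 0.651 CPM pericentrally and 0.592 CPM periportally. The 7 Kupffer and macrophage markers had medians of 0.989 and 0.457 CPM, and Cd5l gave 78 of their UMIs. Of the 5 adipocyte markers, 3 were analysed, with medians of 3.90 CPM pericentrally and 2.20 CPM periportally. The 5 stellate markers had medians of 6.78 and 4.90 CPM, the 4 cholangiocyte markers of 2.70 and 14.4 CPM and the 3 neutrophil markers of 0.428 and 0.471 CPM. The part of such transcripts in the Lpl gradient was not tested.

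Within layer 1, Lpl was higher in cells with a Glul UMI. Each layer 1 cell was thinned to 1000 UMIs, and 832 cells with a Glul UMI were set against 1470 without. Lpl stood at 212 ± 135 CPM in cells with Glul and at 106 ± 94.0 CPM in cells without (SD, n = 10 libraries). The difference was 1.49 ± 1.22 on the log2(CPM + 1) scale (SD) and was positive in 10 of 10 libraries. An exact two-sided sign-flip permutation test gave p = 0.001953, the smallest that 10 libraries allow, and 0.009766 after Benjamini-Hochberg adjustment over the 5 genes. Glul was neither a landmark nor a reason for naming Lpl, but it follows the same axis of the lobule along which Lpl was already known to vary, so the test is no independent evidence of the gradient. ZT18B entered with 1 Lpl UMI against 0, and without it the mean difference was 1.17.

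The other members did not show such a difference. The adjusted p was 0.662 for Angptl4, 0.485 for Angptl6, 0.900 for Angptl8 and 0.485 for Lipc in the same exact permutation test. Their mean differences were -0.44 ± 1.68, -0.91 ± 2.30, 0.12 ± 1.59 and -0.70 ± 1.88 (SD, n = 10). These arms held 2 to 90 UMIs a gene in all, so that smaller differences were not detectable at this depth. Single libraries with few UMIs weighed on the means. ZT18B stood at -4.60 for Angptl4 (0 UMIs against 4) and ZT12A at -5.57 for Lipc (0 against 2). For Angptl8, ZT12C stood at 4.17 (2 against 0), and the difference was negative in 7 of 10 libraries. Angptl6 had 2 UMIs against 6, with 2 libraries positive and 4 negative.

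**Figure D2:**
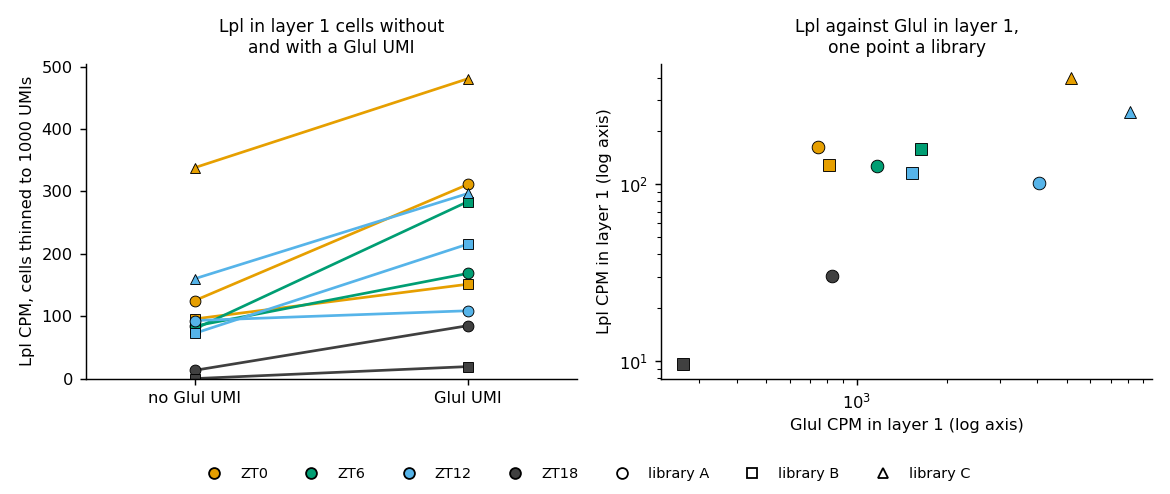
Left, Lpl CPM in layer 1 cells without and with a Glul UMI after thinning to 1000 UMIs a cell, with each line joining the values of a library. Right, Lpl against Glul CPM in layer 1 on log axes, 1 point a library: all 10 lines rise, and ZT18A and ZT18B lie lowest on the Lpl axis, ZT18A at a Glul level close to those of ZT0A and ZT0B.

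Over the day, Lpl was lowest at ZT18. Over whole libraries it stood at 37.4, 26.5 and 101 CPM in ZT0A, ZT0B and ZT0C, and at 33.1 and 37.5 CPM in ZT6A and ZT6B. At ZT12 it stood at 17.9, 25.8 and 62.2 CPM, and at ZT18 at 4.09 and 2.16 CPM, from 13 and 8 UMIs. Both ZT18 libraries lay below the other 8, as in 7.44% of 8908 genes. The ZT18 mean was 3.12 ± 1.37 CPM, against 55.0 ± 40.4 at ZT0, 35.3 ± 3.08 at ZT6 and 35.3 ± 23.7 at ZT12 (SD), and the ranges of ZT0, ZT6 and ZT12 overlapped.

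The difference between ZT18 and ZT6 was -3.43 ± 0.69 (log2, SE, edgeR). It was between -3.92 and -3.04 when any 1 of ZT6A, ZT6B, ZT18A and ZT18B was left out. In the pericentral zone alone the difference was -3.03 ± 0.66. At ZT18 that zone held 20 Lpl UMIs over both libraries and the periportal zone 0, so Lpl was at least 7.70-fold higher pericentrally against a floor of 3 counts over the group.

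Other values at ZT18 are given beside Lpl, and not all of them were lower. In layer 1, Glul stood at 826 CPM in ZT18A and 265 CPM in ZT18B, against 742 in ZT0A and 807.5 in ZT0B, where Lpl was 163 and 129 CPM. In that layer Lpl was 30.0 CPM in ZT18A and 9.55 CPM in ZT18B. ZT0C and ZT12C, with the highest Lpl of their times, had Glul at 5182 and 8134 CPM there. The Kupffer and macrophage markers, other than the 4 at 0 UMIs, summed to 0 to 0.629 CPM at ZT18, against 0.892 to 4.19 at ZT0, 1.16 to 4.06 at ZT6 and 0 to 3.92 at ZT12. The endothelial markers summed to 8.49 to 10.2 CPM at ZT18 and to 5.80 to 9.35 CPM at ZT6. At ZT0 they summed to 6.46 to 15.2 CPM and at ZT12 to 2.75 to 14.1 CPM. The 3 adipocyte markers, of a cell type that makes Lpl, summed to 5.93 and 5.97 CPM at ZT18 and to 0.892 to 3.51 CPM in the other 8 libraries. The cholangiocyte markers summed to 11.6 to 17.3 CPM at ZT18 and to 0.773 to 4.27 CPM at ZT6. At ZT0 they summed to 17.4 to 32.5 CPM and at ZT12 to 3.44 to 6.53 CPM. The mitochondrial share of UMIs was 21.5% and 19.3% in ZT18A and ZT18B, against 15.9% and 16.0% at ZT6. It was 16.5% to 18.1% at ZT0, and 24.3%, 17.6% and 12.9% in ZT12A, ZT12B and ZT12C. Haemoglobin transcripts stood at 8.80 CPM in ZT18A and 293 CPM in ZT18B. For the low Lpl at ZT18, the part of index column 4, Glul levels, other cell types' markers, haemoglobin and mitochondrial share was not tested.

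**Figure D3:**
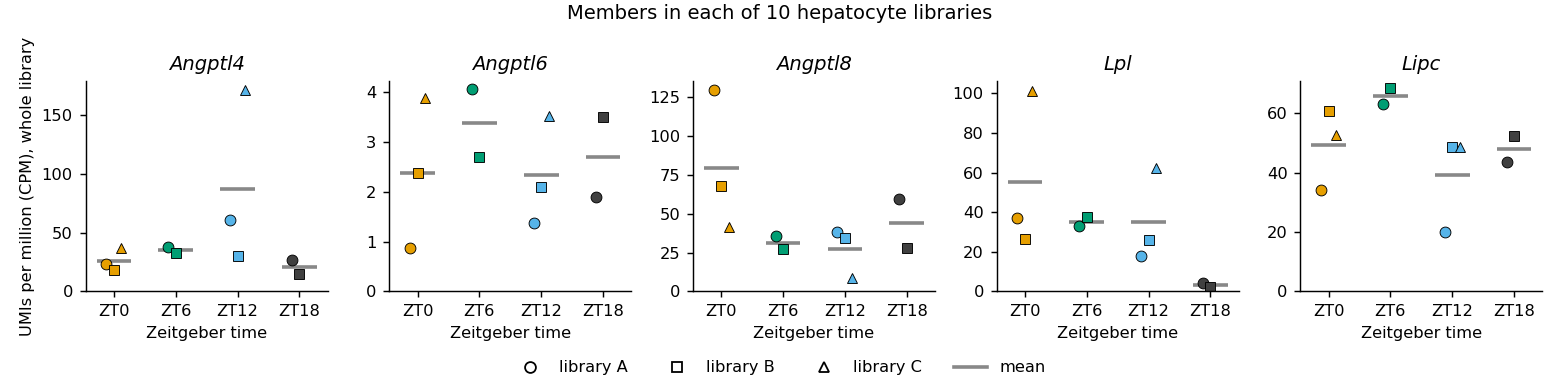
CPM of each gene over all cells of a library (vertical axes from 0, separate scales) at ZT0, ZT6, ZT12 and ZT18, with circles, squares and triangles for libraries A, B and C and a bar for the mean. Both ZT18 libraries lie lowest for Lpl, the 3 ZT12 libraries lie below the 3 ZT0 libraries for Angptl8, and ZT12C stands far above the others for Angptl4.

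Lipc varied little in comparison, over the lobule and over the day. It stood at 34.2, 60.8 and 52.7 CPM in the ZT0 libraries, 63.2 and 68.4 at ZT6, 19.9, 48.6 and 48.7 at ZT12, and 43.7 and 52.3 at ZT18. Both ZT6 libraries lay above the 3 ZT0 libraries (21.5% of genes do so), above the 3 at ZT12 (14.3%) and above both at ZT18 (36.9%). The ranges of ZT0, ZT12 and ZT18 overlapped. The fitted difference was -0.43 ± 0.28 for ZT12 minus ZT0 and -0.38 ± 0.34 for ZT18 minus ZT6 (log2, SE). The former was -0.25 without ZT0B, -0.17 without ZT12A and -0.69 without ZT12B, and the latter -0.23 without ZT18A.

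Across layers the mean of Lipc was slightly higher toward the portal vein, from 46.0 ± 12.7 CPM in layer 1 and 42.5 ± 16.5 CPM in layer 2 to 54.4 ± 9.94 CPM in layer 8. The periportal zone held 53.0 ± 15.3 CPM and the pericentral zone 44.1 ± 14.9 CPM, and the periportal zone was higher in 7 of 10 libraries, as in 19.0% of genes with at least 7. The fitted zone difference was 0.33 ± 0.10 (log2, SE). It was 0.22 without both libraries of index column 5 and 0.21 with the odd-numbered landmarks alone.

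Angptl4 had its highest mean at ZT12, with one library far above the others. It stood at 23.0, 18.1 and 36.6 CPM at ZT0, 38.2 and 32.8 at ZT6, 61.2, 30.1 and 171 at ZT12, and 27.0 and 15.1 at ZT18. ZT12B lay within the ZT0 range, so ZT0 and ZT12 overlapped. Both ZT18 libraries lay below both ZT6 libraries, which 36.9% of genes did, and below the 3 ZT12 libraries, which 26.1% did. The mean was 87.5 ± 74.1 CPM at ZT12, against 25.9 ± 9.59 at ZT0, 35.5 ± 3.79 at ZT6 and 21.1 ± 8.45 at ZT18 (SD).

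The fitted ZT12 minus ZT0 difference of Angptl4 was 1.55 ± 0.45 (log2, SE), and without ZT12C it was 0.66. Without both libraries of index column 5 it was 0.94. Libraries that share an index column could be compared within it: ZT12 over ZT0 was 2.66-fold in column 3, 1.66-fold in column 7 and 4.67-fold in column 5. With the replicate letter as a block the difference was 1.33 ± 0.25. Along the lobule Angptl4 was higher pericentrally in 10 of 10 libraries, as in 8.34% of genes, at 50.1 ± 41.5 against 38.5 ± 43.4 CPM (SD). Its layer means were 49.05 ± 30.4, 54.6 ± 51.6, 51.0 ± 55.5 and 50.6 ± 60.0 CPM in layers 1 to 4 and 34.4 ± 38.7 CPM in layer 8. Layer 1 lay below layer 8 in ZT12C (125 against 141.5 CPM) and ZT18B (11.9 against 13.7 CPM). The pericentral and periportal zones of ZT12C were close, at 159.7 and 155.2 CPM. The fitted zone difference was -0.46 ± 0.11 and stayed between -0.56 and -0.39 with any 1 library left out.

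Angptl8 ran the other way over the day. It stood at 129, 67.6 and 41.5 CPM at ZT0, 35.3 and 27.0 at ZT6, 38.5, 34.4 and 8.53 at ZT12, and 59.7 and 27.8 at ZT18. All 3 ZT12 libraries lay below all 3 ZT0 libraries (4.47% of genes), and so did both ZT6 libraries (11.3% of genes). ZT18 overlapped with each other time. The mean was 79.4 ± 45.0 CPM at ZT0 and 27.2 ± 16.3 at ZT12 (SD).

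For Angptl8 the fitted ZT12 minus ZT0 difference was -1.69 ± 0.51 (log2, SE), and it was -1.06 without ZT0A. With the replicate letter as a block it was -1.68 ± 0.24. Within index columns, ZT12 over ZT0 was 0.298 in column 3, 0.509 in column 7 and 0.206 in column 5. The cholangiocyte markers, most of whose UMIs were of Sox9, moved the same way, with 17.4 to 32.5 CPM at ZT0, 0.773 to 4.27 at ZT6 and 3.44 to 6.53 at ZT12, and their part in the Angptl8 difference was not tested. Over the lobule its mean stayed between 42.1 and 53.5 CPM in all 8 layers. The pericentral zone held 46.0 ± 36.4 CPM and the periportal zone 46.0 ± 28.6 CPM (SD, n = 10), with the periportal zone higher in 4 of 10 libraries. The mean at ZT0 was the highest of the 4 times in each layer, from 69.8 CPM in layer 8 to 92.5 CPM in layer 4.

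A 24-h cosine was fitted to the library values of the 4 members tested, as a description of size and timing. Fitted rhythm amplitudes were 0.84 for Angptl4 with a peak at ZT 10.5, 0.90 for Angptl8 at ZT 22.8, 1.37 for Lpl at ZT 4.77 and 0.28 for Lipc at ZT 2.81 (log2, mean to peak). These sizes moved with single libraries. The amplitude of Angptl4 was 0.45 without ZT12C and that of Angptl8 0.60 without ZT0A. For Lpl it was 2.12 without ZT6A, 0.86 without ZT18A and 0.77 without ZT18B, and 0.50 without both ZT18 libraries or with the index column as a block. For Lipc it was 0.60 without both ZT18 libraries. Peak times moved too. Without both ZT18 libraries the Lpl peak was at ZT 21.5 and the Angptl4 peak at ZT 13.8. With the index column as a block the Lpl peak was at ZT 3.16 and the Angptl4 peak at ZT 9.31. Sampling at 4 times cannot separate such a wave from a shorter pulse.

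**Figure D4:**
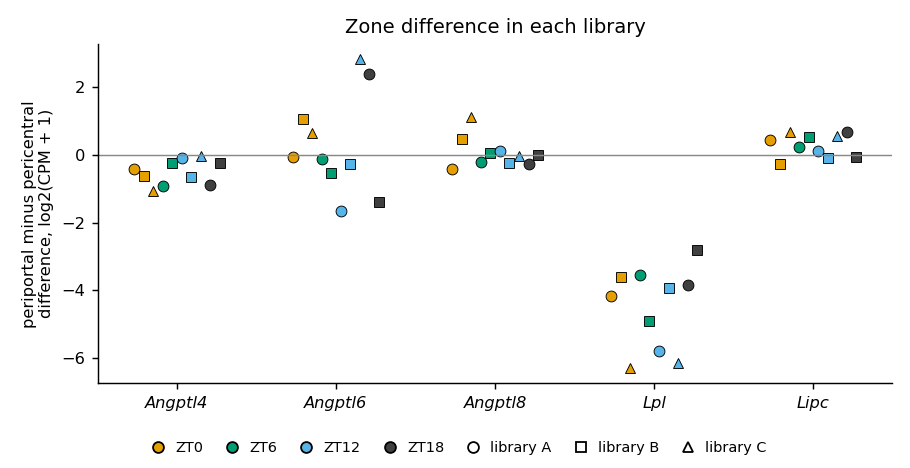
Periportal minus pericentral difference on the log2(CPM + 1) scale for each gene in each of the 10 libraries, with colour for time and shape for library letter. Lpl lies below 0 in all libraries, between -6.29 and -2.81, and Angptl4 lies below 0 by less, while Angptl8, Lipc and Angptl6 fall on both sides.

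Angptl6 was close to the limit of these libraries. It gave 114 UMIs in all, between 2 and 23 a library, and 0.873 to 4.06 CPM. Its mean was 2.63 ± 1.09 CPM (SD, n = 10), under the minimum of 3 CPM for a test. The ranges of all 4 times overlapped. The pericentral zone had 35 UMIs and the periportal zone 42, and no layer had more than 16.

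Whether the zone difference itself changed with time of day was tested for the other 4. The adjusted p for zone by rhythm (edgeR, 2 degrees of freedom) was 0.883 for Angptl4, 0.934 for Angptl8, 0.983 for Lipc and 0.920 for Lpl, and 3 of 8907 genes passed (0.0337%, with 541 at an unadjusted p under 0.05 and 0 by DESeq2). The fitted amplitudes of the zone difference were 0.24, 0.23, 0.10 and 0.89 (log2). For Lpl the amplitude ranged from 0.07 without ZT6A to 1.998 without ZT12B, so a change of its zone difference with time was not detectable at this depth.

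Profiles over 4 times and 8 layers were also compared with those of other genes. The 32 points share libraries, and neighbouring layers share the cell order, so each correlation is a description. Lpl was most like Fam25c (r = 0.934), Cyp2d40 (0.931) and Akr1c6 (0.929). Angptl4 was most like Sephs2 (0.951), Pank1 (0.916) and Hmgb1 (0.904). Angptl8 was most like Ddc (0.880), Tuba4a (0.875) and Tubb2a (0.872). For Lipc these were Apoe (0.771), Nr4a1 (0.759) and Eepd1 (0.750), and for Angptl6 Emc3 (0.660), Spata13 (0.554) and Atp5o (0.531). Angptl4 and Angptl8 had r = -0.69 with each other.

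The other genes of triglyceride lipolysis were counted from 7 lists, of 61 genes, of which 53 were tested. Over all genes, 3.44% passed an adjusted p of 0.05 for ZT12 minus ZT0, 3.79% for ZT18 minus ZT6 and 5.14% for a 24-h rhythm. For zone 24.6% passed, 11.9% as higher and 12.7% as lower periportally. Of the 7 lipases and maturation factors, 1 rose at ZT12 against ZT0, the endothelial lipase Lipg, from 6.56 ± 1.57 to 29.1 ± 15.0 CPM (SD), by 1.91 ± 0.39 (log2, SE, edgeR adjusted p = 0.0136). That call was lost without ZT0B, ZT12A or ZT12C (adjusted p = 0.0592, 0.0566 and 0.0734 in edgeR). Sel1l, which is needed for Lpl to leave the endoplasmic reticulum, rose at ZT18 against ZT6 by 0.89 ± 0.21 (log2, edgeR adjusted p = 0.0352), and the call was lost without any of ZT6A, ZT6B, ZT18A and ZT18B (up to 0.324). Lmf1, the lipase maturation factor, stood at 9.07 to 10.9 CPM at the 4 times.

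The list of apolipoproteins and anchors that act on the lipase also held Creb3l3, which is neither. Of its 8 tested genes, 7 passed in the zone contrast, 5 higher periportally and 2 pericentrally, where 24.6% of all genes passed. Creb3l3 was among the 7. For ZT12 minus ZT0, 0 passed in edgeR and 0 in DESeq2, with 1 at an unadjusted p under 0.05, where 3.44% of all genes passed. For ZT18 minus ZT6, 0 passed in edgeR and 0 in DESeq2, with 0 at an unadjusted p under 0.05. The median difference of the list was 0.20 for zone, -0.36 for ZT12 minus ZT0 and -0.11 for ZT18 minus ZT6 (log2), against -0.01, -0.00075 and -0.01 over all genes. Apoa4 was 170 ± 29.3 CPM periportally and 43.9 ± 15.6 CPM pericentrally, a difference of 2.03 ± 0.11 (log2, SE, edgeR adjusted p = 1.0e-16). Apoa5, an activator of triglyceride lipolysis, differed by 0.83 ± 0.07, and the inhibitor Apoc3 by 0.50 ± 0.09. Apoc1 lay on the pericentral side (-0.40 ± 0.07). The activator Apoc2, with 114 UMIs, and the anchor Gpihbp1, with 29, were not tested.

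Of the proprotein convertases, which cleave angiopoietin-like proteins or lipases, Pcsk6 passed for zone and was higher pericentrally (-0.67 ± 0.08). All 10 tested genes of remnant and fatty acid uptake passed for zone, 6 as higher periportally and 4 pericentrally, against 24.6% of all genes. The heparan sulfate proteoglycan Sdc1, a remnant receptor, differed by 0.92 ± 0.08, the lipolysis-stimulated receptor Lsr by 0.79 ± 0.08 and the HDL receptor Scarb1 by 0.70 ± 0.12. The fatty acid binding protein Fabp1 lay on the other side (-0.79 ± 0.10).

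Of 12 regulators, 2 passed for ZT12 minus ZT0, where 3.44% of all genes did, and 4 for zone, a share near the 24.6% of all genes. Foxo1, which insulin signalling restrains, rose from 28.3 ± 3.23 CPM at ZT0 to 77.0 ± 17.9 CPM at ZT12, by 1.28 ± 0.19 (log2, edgeR adjusted p = 0.00153). Srebf1 was higher periportally (0.46 ± 0.08) and Ppara, one of the PPAR receptors, pericentrally (-0.44 ± 0.12). Of 10 tested PPAR alpha targets, 6 passed as higher pericentrally and 0 periportally, against 12.7% and 11.9% of all genes, with a median of -0.60 against -0.01 over all genes. Among them were Acot1 (-3.39 ± 0.16), Cyp4a10 (-2.78 ± 0.14) and Cyp4a14 (-2.48 ± 0.13), enzymes of fatty acid metabolism.

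Over the day, 2 of the 10 PPAR alpha targets passed for ZT12 minus ZT0 and 2 for ZT18 minus ZT6, 1 higher and 1 lower in each. Cpt1a, which admits fatty acids to mitochondria, rose at ZT12 against ZT0 by 1.55 ± 0.19 (86.3 ± 10.3 to 278 ± 30.8 CPM, SD, edgeR adjusted p = 5.2e-04). The lipid droplet protein Plin2 fell by 1.07 ± 0.19 (edgeR adjusted p = 0.00645). At ZT18 against ZT6, Cyp4a10 fell by 1.89 ± 0.45 and Ehhadh rose by 1.45 ± 0.34, and both calls were lost without ZT6B, ZT18A or ZT18B (edgeR adjusted p up to 0.336 and 0.274), the second also without ZT6A. In zone by rhythm 0 of the 53 listed genes passed in edgeR and 0 in DESeq2, with 10 at an unadjusted p under 0.05.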

How the data were processed

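Values are UMI counts per gene and cell, which the authors deposited as whole numbers for 10 libraries. Per the submitters' processing notes, Cell Ranger and the builds hg19 and mm10 were used; their roles, the cell filter and any doublet removal are not given in the sources used here. No cell was removed (1048 to 10001 UMIs), doublets were not called, and cells carry numbered names, so shared barcodes could not be counted. No pair of libraries was a copy (chi-square per degree of freedom 5.30 to 63.6).

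Groups came from the titles. Counts were summed per library, or per library and zone (3 equal parts of an order by 8 periportal and 8 pericentral landmarks), and tested with edgeR 4.0.16 (R 4.3.3, TMM, quasi-likelihood, mean of at least 3 CPM, Benjamini-Hochberg, threshold 0.05). DESeq2 1.42.0 was an alternative. Fits were tested on simulated data. Per-library differences used log2(CPM + 1), which understates changes of low genes. Floors (3 counts) cover counting error only.

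The letters pair ZT0 with ZT12, since deviations of same-lettered libraries correlated (r = 0.239, 0.42 and 0.473) and each letter shares an index column. The main fits over time did not use this pairing, which entered as a block in alternatives. ZT6 and ZT18 did not pair (r = 0.0262, necessarily the same for A and B with 2 libraries at each time). Members and lists were chosen with earlier results of these data known. Named were the 5 members, per list up to 4 called genes with the largest change and at least 20 CPM, and the 3 most alike genes of at least 10 CPM; Lipg, Lmf1, Apoc2, Gpihbp1, Stab2 and Cd5l were named outside that rule, after their values were seen. Alternatives were other scalings, filters, zones and landmarks, blocks and each library left out. Some listed genes are not reported here.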

Additional observations from a re-analysis of the deposited data

Results flagged for a closer look

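In 3 of 10 sets of 10 per-library values, one library lay far from the rest, where chance gives about 1 in 20. All are differences between layer 1 cells with and without a Glul UMI, on the log2(CPM + 1) scale. For Angptl4, ZT18B stood at -4.60 and the next library at -1.19; it had 0 Angptl4 UMIs in cells with Glul and 4 in cells without. For Angptl8, ZT12C stood at 4.17 and the next at 0.98, with 2 UMIs against 0. For Lipc, ZT12A stood at -5.57 and the next at -1.40, with 0 UMIs against 2.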

How the results depend on the processing

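Depth limits Angptl6 (114 UMIs) and Lpl at ZT18 (13 and 8 UMIs). The letters, which pair only ZT0 with ZT12, were used as a replicate block: called genes went from 458 to 749 for rhythm, from 306 to 504 for ZT12 minus ZT0 and from 338 to 730 for ZT18 minus ZT6, and listed pathway genes for ZT18 minus ZT6 from 4 to 9. The rhythm count was 792 with DESeq2, 283 at 20 CPM and 231 without both ZT18 libraries. The Lpl amplitude of 1.37 became 0.50 with the index column as a block and 0.50 without both ZT18 libraries. ZT12 minus ZT0 gave 605 genes with that block and 147 without column 5, the latter chosen after seeing the data, as was the pericentral zone alone. ZT18 minus ZT6 gave 199 at 20 CPM. Zone by rhythm, 3 genes, gave 0 with DESeq2 and at 20 CPM, 5 with library size alone, 42 without a filter, 28 with the index column, 5 with narrower outer zones and 52 without column 5. Listed genes for ZT12 minus ZT0, 5, became 3 at 20 CPM and 8 with the index column, and for zone by rhythm, 0, became 2 without a filter and 1 with the index column. Unthinned shares of cells with a UMI were 0.563% for Angptl6, 7.97% for Angptl8, 5.95% for Lpl and 10.7% for Lipc, against thinned 0.282%, 3.23%, 2.59% and 4.95%. Library size as the only scaling moved the median of all genes by 0.14 (log2) for ZT12 minus ZT0 and by -0.10 for zone, and the share of calls higher at ZT12 from 50.7% to 66.7% and higher periportally from 48.3% to 27.8%.

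With each library left out in turn, genes called ranged from 228 to 465 for rhythm, from 50 to 494 for ZT18 minus ZT6 and from 0 to 36 for zone by rhythm. Listed genes ranged from 3 to 7, from 0 to 6 and from 0 to 1. The Lpl amplitude ranged from 0.77 to 2.12 and the Angptl4 ZT12 minus ZT0 difference from 0.66 to 1.97. Angptl8 for ZT18 minus ZT6 ranged from -0.07 to 0.99 and Lpl for ZT12 minus ZT0 from -1.34 to -0.09. The cause of these moves was not tested. Apart from leaving out single libraries, the other 276 values were counted as unmoved. For most, this meant less than the spread between libraries, or up to 1.5 times for counts. For the members' zone by rhythm amplitudes and the Lpl difference by Glul, it meant only that the test result stayed on the same side of 0.05. When fits were blocked by index column, the zone by rhythm amplitude of Lipc rose from 0.10 to 0.54 and that of Lpl fell from 0.89 to 0.34. The exceptions in direction were the uncalled Angptl8 differences: that for ZT18 minus ZT6 above, and that for zone, 0.14, which was -0.02 without ZT0C and -0.01 without column 5.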
